A study of Mus musculus with 33 samples.

Results

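Mouse embryonic stem cells that had been driven toward an extraembryonic endoderm-like state with retinoic acid and the compound CHIR were followed for 6 days after both were taken away, and the change in their messenger RNA over those 6 days is described here. The comparison rests on 6 of the 33 RNA-seq libraries of the series, 3 taken on day 10 of differentiation and 3 taken on day 16. It covers the 13366 of 52631 genes in the expression table that had at least 1 FPKM (fragments per kilobase of transcript, scaled to the number of fragments mapped in the library) in at least 3 of the 6 libraries. All cells carry the label of strain 129S2/SvPas. For the first 10 days the stem cells sat on gelatin in DMEM with 15% serum, 10 µM all-trans retinoic acid and 5 µM CHIR (RA/CHIR-10d), and for the next 6 days in DMEM with 10% serum and neither inducer (RA/CHIR-16d). The labels call both groups ES-derived XEN-like cells, where XEN stands for extraembryonic endoderm. The other arm of the study went through the same steps with retinoic acid alone (RA-10d and RA-16d, labelled as smooth muscle-like cells). Untreated stem cells (mES, kept on inactivated mouse fibroblasts with LIF), XEN cells and smooth muscle cells (SMC) served as references, with 3 libraries in each group. Removal of the inducers, the lower serum and 6 more days in culture came together, so their parts in any difference between day 10 and day 16 cannot be told apart.

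In canonical Wnt signalling the kinase GSK3 marks beta-catenin for destruction. CHIR blocks GSK3, so beta-catenin builds up, enters the nucleus and, together with TCF and LEF proteins, switches on target genes, many of which feed back on the pathway. Retinoic acid acts through nuclear receptors that sit on DNA, and its own breakdown enzymes of the Cyp26 family are among its targets. The primitive endoderm of the early embryo splits into parietal endoderm, which lays down a thick basement membrane, and visceral endoderm, an absorptive epithelium that makes serum proteins much as the later liver and gut do.

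The 6 libraries had FPKM sums between 669470 and 783087 and between 12876 and 13086 genes at 1 FPKM or more. The highest sum came from RA/CHIR-10d replicate 1, in which the mitochondrial transfer RNA gene mt-Ts1 stood at 95422.3 FPKM against 0 in the other 5. Pearson's r over genes lay between 0.9825 and 0.9895 within a group and between 0.8839 and 0.8891 across the groups. Counts of reads were not analysed here, so no counting interval can be given. The labels do not say whether replicates were separate cultures, so the spread between libraries behind the p-values may be technical. That spread, and each standard error, is pooled over these 6 libraries and the 6 of RA-10d and RA-16d. In bulk RNA, fewer cells of a kind and less RNA per cell cannot be told apart.

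From day 10 to day 16 many Wnt and retinoid response genes that had been high under the inducers fell, and many genes for stomach and gut secretions, serum proteins and basement membrane rose. A gene was called when its log2 change of FPKM + 1 was at least 1 in size with an adjusted p under 0.05 (limma). By this rule 1366 genes rose (10.2% of the genes tested) and 1013 fell (7.58%), and the median change over all 13366 was 0.0119. Because 1 is added before taking logs, the change of genes of low FPKM is understated. A gene can pass the filter through the libraries of a single day. If it was near 0 FPKM on day 10 it could not have been called lower. If it was near 0 on day 16 it could not have been called higher. Values after "rose by" and "fell by" are on this log2 scale, and "±" after a log2 change gives its standard error. The 3 libraries of day 16 lay all above or all below the 3 of day 10 in 68.2% of genes, so lack of overlap is the common case here. Without RA/CHIR-10d replicate 1, the library with the high mt-Ts1 value, 1373 genes rose and 1013 fell. The plot of lists sets 17 gene groups side by side. The Wnt targets, retinoid, Hox and hedgehog groups have medians near or below -1. The serum protein, brush border and immediate early groups have medians above 2.

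**Figure D1:**
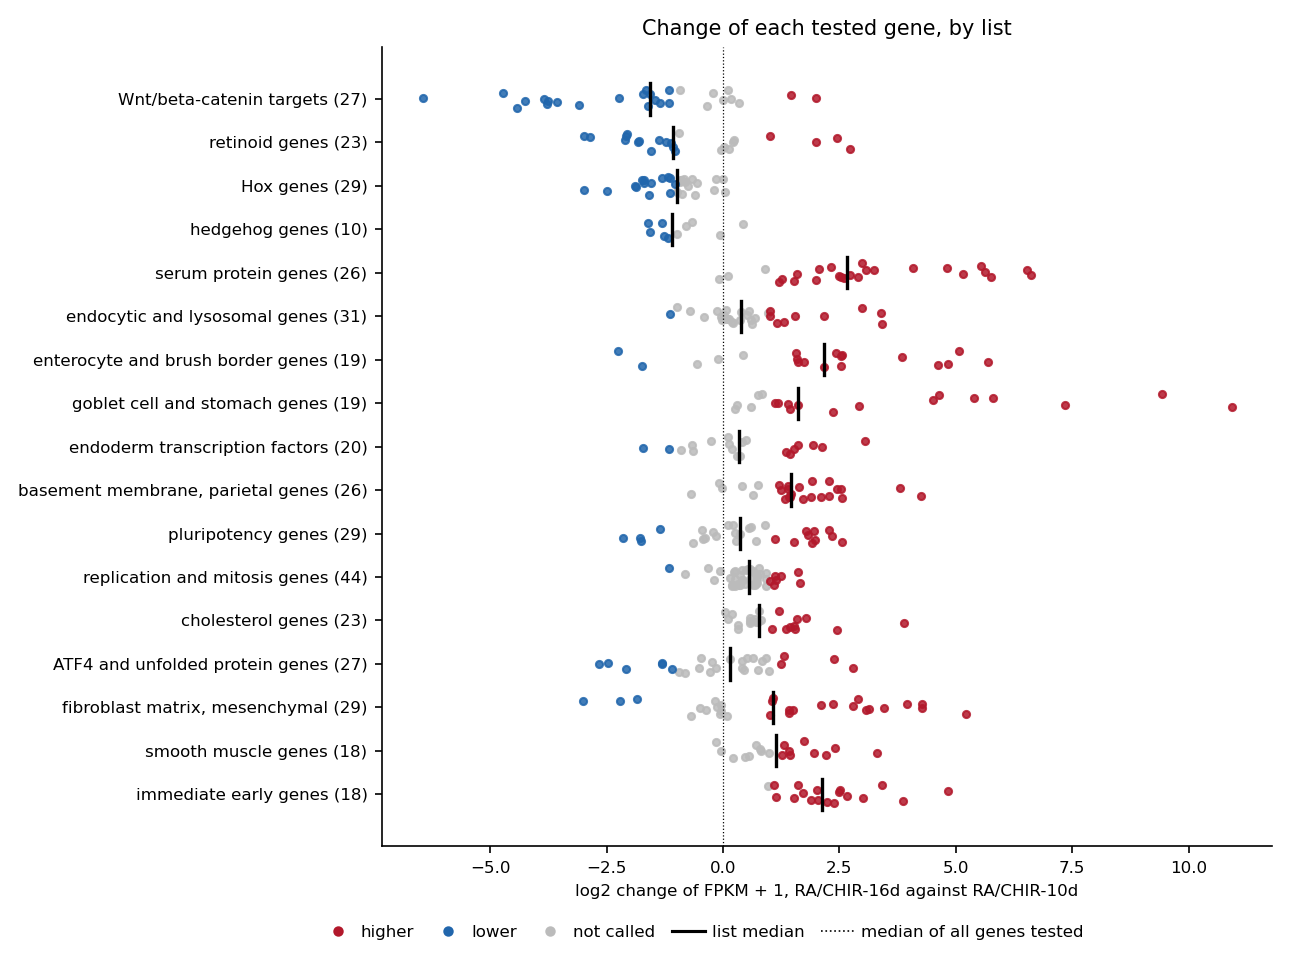
Each point is a gene tested, placed by its log2 change of FPKM + 1 from RA/CHIR-10d to RA/CHIR-16d (3 libraries each), with lists in rows and the number of genes tested in parentheses; colour gives the call, the bar the list median and the dotted line the median of all genes tested (0.0119). The Wnt target row has a median of -1.57 and the serum protein row one of 2.67.

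The DNA before the starts of 5 genes from groups that changed is shown: a Wnt target, a retinoic acid target, a serum protein and the pair of stomach genes with the largest rise. All 5 hold the motif searched in them. Most called members of their groups that had such a stretch did not, so the 5 do not stand for their groups in this. Each stretch is the 250 bases before the gene's start in RefSeq on build GRCm38.p6, written 5′ to 3′ along the gene, with a searched motif in capitals. Sp5 encodes a transcription factor of the Wnt feedback loop, and its window (chr2:70474673-70474922, plus strand) holds the TCF/LEF core CTTTGA at 204 and at 104 bases before the start.
Sp5: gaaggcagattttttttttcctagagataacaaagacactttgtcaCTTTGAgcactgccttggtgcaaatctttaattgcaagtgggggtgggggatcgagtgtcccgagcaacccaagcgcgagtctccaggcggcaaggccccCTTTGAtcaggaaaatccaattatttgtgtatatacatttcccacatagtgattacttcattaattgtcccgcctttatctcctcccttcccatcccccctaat
Cyp26a1, the main enzyme of retinoic acid breakdown, has in its window (chr19:37697558-37697807, plus strand) a retinoic acid response element of the direct-repeat kind, AGTTCA with 5 bases before the next AGTTCA, read on the opposite strand and beginning 32 bases before the start.
Cyp26a1: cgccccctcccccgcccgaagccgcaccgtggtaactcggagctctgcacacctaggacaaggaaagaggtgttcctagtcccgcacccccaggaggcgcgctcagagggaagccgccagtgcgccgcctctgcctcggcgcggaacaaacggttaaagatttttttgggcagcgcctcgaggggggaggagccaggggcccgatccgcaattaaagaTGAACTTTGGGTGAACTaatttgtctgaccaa
Afp encodes alpha-fetoprotein, the serum protein of visceral endoderm and fetal liver, and its window (chr5:90490464-90490713, plus strand) holds the letters GTTAATNAT at 105 bases before the start.
Afp: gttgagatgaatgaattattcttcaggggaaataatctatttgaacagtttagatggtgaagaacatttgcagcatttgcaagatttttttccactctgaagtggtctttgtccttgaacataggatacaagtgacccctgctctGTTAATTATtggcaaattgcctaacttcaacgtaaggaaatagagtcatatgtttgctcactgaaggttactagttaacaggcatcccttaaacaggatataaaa
Gkn1 and Gkn2 encode gastrokines, secreted proteins of the stomach lining, and lie near each other on chromosome 6. Their windows (chr6:87350916-87351165, minus strand, and chr6:87373115-87373364, plus strand) each hold the GATA letters AGATAA, at 82 and at 218 bases before the start.
Gkn1: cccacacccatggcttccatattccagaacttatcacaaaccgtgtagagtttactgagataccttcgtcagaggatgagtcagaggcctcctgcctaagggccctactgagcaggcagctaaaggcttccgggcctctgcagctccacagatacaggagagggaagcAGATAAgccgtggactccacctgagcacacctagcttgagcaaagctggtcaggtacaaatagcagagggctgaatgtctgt
Gkn2: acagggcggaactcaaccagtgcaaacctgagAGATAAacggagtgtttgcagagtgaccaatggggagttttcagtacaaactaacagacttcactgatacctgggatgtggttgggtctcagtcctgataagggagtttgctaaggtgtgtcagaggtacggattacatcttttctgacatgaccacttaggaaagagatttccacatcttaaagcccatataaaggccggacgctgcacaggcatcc

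Both strands of 32851 such windows were searched. CTTTGA was found in 13.8% of them, AGATAA in 9.99%, TTTATNG (a motif of CDX factors) in 9.81%, GTTAATNAT in 0.737% and the AGTTCA repeat in 0.0213%, which is 7 windows. CTTTGA read backwards is TCAAAG, so it can share letters with CAAAGTCCA, an HNF4 motif that was found in 0.384% of windows. Of the 18 Wnt targets that fell, 13 had a window and 3 of these held CTTTGA (Lef1, Sp5 and Tnfrsf19). Of the 13 retinoid genes that fell, 11 had a window and Cyp26a1 alone among these held the AGTTCA repeat. Of the 23 serum protein genes that rose, 19 had a window, 4 of which held GTTAATNAT (Afp, Alb, Cp and Fga) and 0 the HNF4 letters. Of the 14 goblet and stomach genes that rose, 7 had a window and 3 held AGATAA (Cldn18, Gkn1 and Gkn2). Of the 20 basement membrane and parietal genes that rose, 13 had a window and 1 held AGATAA (Krt8), a share of 7.69%. Of the 14 enterocyte genes that rose, 12 had a window, 3 of which held TTTATNG (Fabp1, Fabp2 and Krt20) and 1 the HNF4 letters (Muc13). A match is a description of letters and says nothing about binding.

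The label of the cells was set beside the genes that define the tissue. Gata4, a transcription factor of all extraembryonic endoderm, stood at 151, 142 and 154 FPKM in the day 10 libraries and at 195, 183 and 176 on day 16, against 246 ± 2.81 (SD, n = 3) in XEN cells. Sox17, its partner in the same lineage, stood at 332, 333 and 336 and then at 403, 337 and 345. Neither was called (log2 changes of 0.31 ± 0.07 and 0.11 ± 0.12, mean ± SE), and the highest day 10 library of Sox17 lay just under its lowest day 16 library. Gata6, another GATA factor of this lineage, rose from 30.0, 31.8 and 31.1 to 144, 140.1 and 132 FPKM (log2 change 2.13 ± 0.06, adjusted p = 9.8e-11). All 3 day 16 libraries lay above every day 10 library and above the XEN mean of 43.5. Of 24 primitive endoderm genes tested, 11 rose and 2 fell (median 0.861), and 22 did not overlap between the days. Over all genes tested, 10.2% rose, 7.58% fell and 68.2% did not overlap. Pdgfra, the receptor used to sort such cells, stood at 74.1 FPKM on average on day 10 and at 98 on day 16 and was not called. The stem cell factor Pou5f1 was still at 189.7, 198 and 197 FPKM on day 10 and at 139, 142 and 149 on day 16 (log2 change -0.44 ± 0.13, not called), whereas XEN cells had 0.238 ± 0.22 (SD, n = 3). The cells thus had the endoderm genes of their label at both times, with a level of Pou5f1 that XEN cells lack.

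Wnt feedback genes fell together and had the lowest median of the lists described here. Of 28 genes listed as beta-catenin targets or feedback regulators, 27 were tested, 18 fell and 2 rose, with a median of -1.57. Notum (ENSMUSG00000042988, chr11:120653788-120661175, GENCODE M21 on GRCm38, as for the positions that follow) encodes a secreted enzyme that strips Wnt proteins of the lipid they need. It stood at 106, 102 and 100.2 FPKM in the day 10 libraries and at 0, 0.461 and 0.144 on day 16. The change was -6.45 ± 0.14 on the log2(FPKM + 1) scale (adjusted p = 1.3e-11), and every day 16 library lay below the 5.88 FPKM of untreated stem cells. Its antisense partner Notumos had a log2 change of -3.34, and without strand information the reads of the pair cannot be told apart. Axin2 (ENSMUSG00000000142, chr11:108920349-108950783), the scaffold of the beta-catenin destruction complex, went from 49.6, 47.8 and 46.5 FPKM to 1.93, 1.37 and 1.40 (log2 change -4.26 ± 0.12, adjusted p = 6.7e-11). Sp5 (ENSMUSG00000075304, chr2:70474923-70477729), whose promoter window was shown for its CTTTGA letters, went from 30.2, 27.1 and 26.1 to 0.144, 0 and 0.145 (log2 change -4.71 ± 0.11, adjusted p = 1.7e-11). For both genes the groups lay far apart, and the day 16 level was at or under that of untreated stem cells, which was 3.25 FPKM for Axin2 and 0.196 for Sp5.

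Other members of the loop followed. Nkd1, which binds Dishevelled and damps the signal, went from 108, 103 and 104 to 3.17, 4.36 and 4.27 FPKM. The nuclear partners of beta-catenin fell as well: Tcf7 went from 26.1, 27.7 and 28.4 to 1.75, 1.28 and 1.16 FPKM. Lef1 went from 3.49, 6.02 and 6.63 to 0.694, 0.0966 and 0.271. Among membrane and secreted antagonists, Wif1 went from a mean of 29.5 to 1.24 FPKM. Apcdd1 went from a mean of 42.6 to 4.13 FPKM. The receptor Tnfrsf19 went from a mean of 31.3 to 1.39. Rnf43 and Znrf3, which remove Wnt receptors from the surface, fell less (log2 changes of -1.35 and -1.45). Lgr5, a receptor for R-spondin known from gut stem cells, stood at 1.64, 2.75 and 1.85 FPKM on day 10 and is listed at 0 in the 3 day 16 libraries. Msx1 and Msx2, homeobox genes that answer to Wnt and BMP signals, fell (log2 changes of -3.84 and -1.65).

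Not every target in the list moved down. Dkk1, a secreted inhibitor of Wnt receptors and a common target in other cells, stood at 11, 10.9 and 9.67 FPKM and then at 11.3, 12.9 and 9.96, with overlapping groups (log2 change 0.10 ± 0.15, not called). Its level had been higher under the inducers on day 7, at a mean of 25.0. Bambi, Sp8, Kremen1, Fzd7 and Zfp703 were not called either, with changes between -0.35 and 0.35. Cdx1 had come down before withdrawal, from a mean of 88.3 FPKM on day 4 to 1.47 on day 10 and 0.306 on day 16, a change of -0.92 that missed the fold threshold and passed it with a pseudocount of 0.1 (-2.02), under quantile normalization (-1.08) or without RA/CHIR-10d replicate 3 (-1.02). Myc rose from 2.81, 2.58 and 2.98 to 10.4, 10.8 and 7.57 FPKM. The receptor kinase Ephb3 went from 16.6, 15.9 and 15.4 to 67.8, 68.3 and 64.8, toward the XEN mean of 85.9. The mesoderm gene T, the textbook target in the primitive streak, was outside the test with 0.372, 0 and 0 FPKM on day 10 and 0 in each library on day 16.

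The Wnt proteins and receptors themselves moved less uniformly. Of 47 listed, 27 were tested, 10 fell and 2 rose (median -0.636). Wnt6 fell from 26.8, 30.2 and 32.8 to 2.74, 3.02 and 0.752 FPKM. Wnt2 went from 5.80, 5.96 and 5.71 to 0, 0 and 0.0691. The receptor Fzd10 fell from 5.36, 5.49 and 5.31 to 0.0569, 0.18 and 0.222. Wnt11, Wnt9a and Wnt5b fell (log2 changes of -1.66, -1.54 and -1.27). Rspo3, which boosts Wnt signals, fell by 1.27. Wnt4 rose by 1.06 and the secreted antagonist Frzb by 1.28, while the antagonist Dkk2 fell by 1.93 and Sfrp2 fell by 1.48. Antagonists thus went both ways, and of the Wnt ligands called, 5 fell and Wnt4 rose.

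Of 26 retinoid genes listed, 23 were tested, 13 fell and 4 rose (median -1.07). Cyp26a1 (ENSMUSG00000024987, chr19:37697798-37701536) had 1398, 1376 and 1353 FPKM on day 10 and 194, 185 and 192 on day 16 (log2 change -2.85 ± 0.04, adjusted p = 1.1e-12). The groups were far apart, yet 6 days without added retinoic acid left the gene well above the 2.11 FPKM of untreated stem cells and the 0.418 of XEN cells. Its relatives Cyp26b1 and Cyp26c1 fell (log2 changes of -2.11 and -2.06). Rarb, a direct target, fell from 12.9, 13.7 and 13.0 to 4.31, 2.91 and 2.13 FPKM and Rarg fell by 1.13. Rara stood at means of 8.05 and 8.18 and was not called. Stra6, which takes up retinol, fell by 1.55 and the meiotic gene Stra8 fell by 1.37. Crabp1, a carrier inside the cell, fell by 2.09. In the other direction, Rbp4, the carrier of retinol in blood, rose from 99.2, 93.0 and 83.0 to 355, 387 and 365 FPKM. Aldh1a1, which makes retinoic acid, rose from a mean of 1.24 to 11.2 FPKM. The mean of the transglutaminase gene Tgm2 went from 2.05 to 19.0. The mean of Aldh1a2, another enzyme of retinoic acid synthesis, fell from 1.82 to 0.34.

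The Hox genes, whose anterior members are classic targets of retinoic acid, showed 14 lower and 0 higher among 29 tested (median -0.996). Hoxa3 went from 10.3, 11.4 and 10.8 to 0.942, 1.28 and 1.13 FPKM. The log2 changes were -2.49 for Hoxa3, -1.70 for Hoxa5, -1.89 for Hoxb8 and -1.87 for Hoxc5. Hoxa10, a posterior gene, stood at means of 12.2 and 12.5 FPKM and was not called.

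The plot of the course of Wnt and retinoid genes adds the earlier days. Axin2, Notum and Sp5 were already high on day 4 in the RA/CHIR arm and had means of 51.5, 119 and 30.7 FPKM on day 7. In the RA arm without CHIR the same genes had means of 18.3, 14.3 and 12.5 FPKM on day 10, and of 6.54, 3.79 and 1.6 on day 16.

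**Figure D2:**
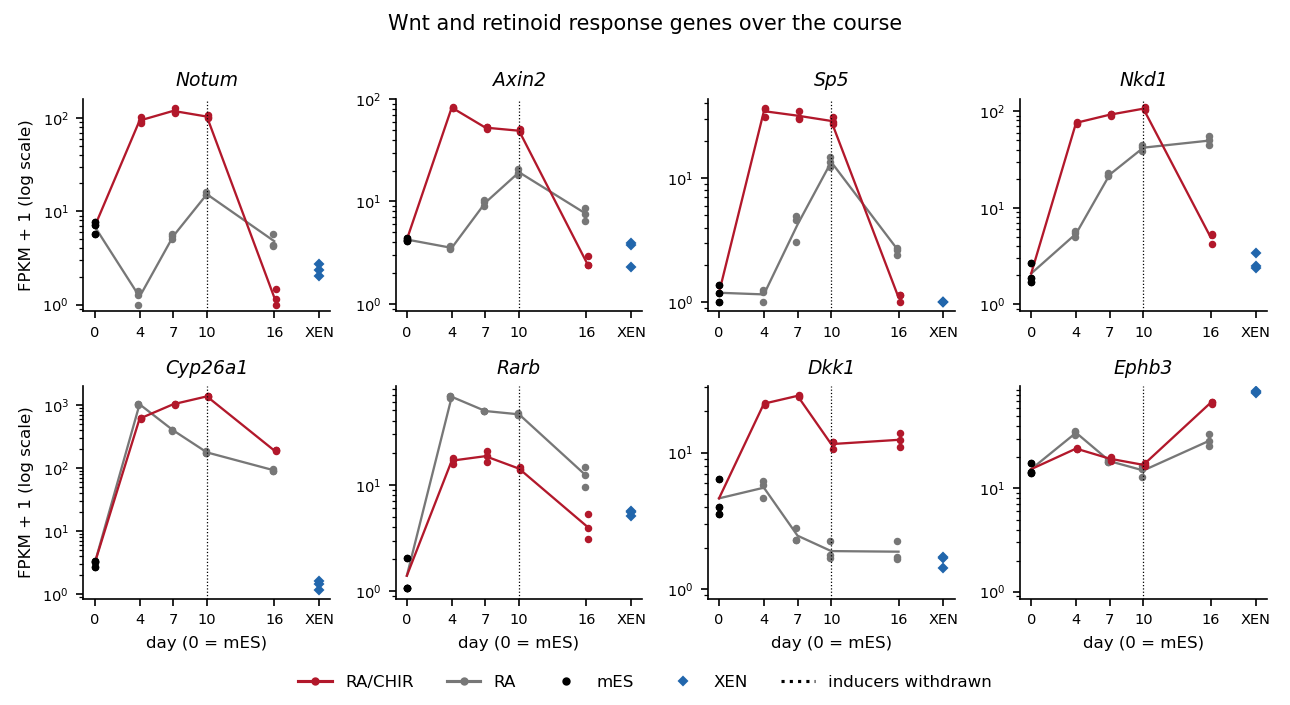
FPKM + 1 on a log axis for 8 genes over days of differentiation in the RA/CHIR arm (red) and the RA arm (grey), with untreated stem cells at day 0 (black) and XEN cells at the right (blue diamonds); points are libraries, lines join group means of 3 libraries, and the dotted line marks removal of the inducers. Notum, Axin2, Sp5 and Nkd1 drop after day 10 in the RA/CHIR arm, while Dkk1 stays near 11 FPKM and Ephb3 rises.

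The pair of genes with the largest rise encodes the gastrokines of the stomach. Gkn2 (ENSMUSG00000030049, chr6:87373357-87379497) was listed at 0.377, 0 and 0 FPKM in the day 10 libraries and at 2094, 2164 and 2225 on day 16 (log2 change 10.92 ± 0.22, adjusted p = 5.3e-12). Gkn1 (ENSMUSG00000030050, chr6:87345650-87350942), its neighbour, was at 0, 0.111 and 0 and then at 698, 721 and 724 (log2 change 9.43 ± 0.11, adjusted p = 1.1e-13). The day 16 libraries of each gene lay within a narrow band, and XEN cells had 6.06 and 0.523 FPKM. Gkn3, the other gastrokine gene, was not called and stood at 5.22, 5.61 and 5.44 and then at 5.09, 9.0 and 7.18. Tff3, a trefoil peptide of goblet cells, went from 0, 0.71 and 0 to 197, 169.8 and 217 FPKM. Tff1, the stomach trefoil peptide, went from 0.522, 0.65 and 0.536 to 30.5, 32.0 and 42.4. The pepsinogen gene Pga5 went from 5.78, 8.71 and 9.60 to 499, 500.5 and 485. The other pepsinogen gene tested, Pgc, stood at 4.16, 2.75 and 5.53 and then at 8.72, 7.67 and 6.03 and was not called. Zg16, a lectin of goblet cell mucus, rose from 0, 0.29 and 0.274 to 44.8, 52.6 and 47.8. In all, 26 goblet and stomach genes were listed and 19 were tested, of which 14 rose and 0 fell (median 1.62). Members near 0 FPKM on day 10, such as Gkn1 and Cldn18, could not have been called lower. The secreted inhibitor Spink1 rose by 4.63, Agr2, which folds mucins, by 2.92, and the mucin gene Muc1 by 1.62. Claudin gene Cldn18 was listed at 0 on day 10 and stood at 1.35, 1.32 and 2.69 FPKM on day 16. Outside the list, Ghrl, the gene of the stomach hormone ghrelin, went from 0.154, 0 and 0.48 to 27.8, 27.0 and 29.4 FPKM. Dpcr1 went from 0.114, 0.144 and 0.029 to 49.997, 48.3 and 45.6.

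Of 38 serum protein genes listed, 26 were tested, 23 rose and 0 fell (median 2.67). Members near 0 FPKM on day 10, such as Apoc3, Fga and Apob, passed the filter through day 16 alone. They could not have been called lower, which limits what the count and the median show. Afp (ENSMUSG00000054932, chr5:90490737-90508907) stood at 0.642, 1.41 and 0.304 FPKM on day 10 and at 164, 171 and 169 on day 16 (log2 change 6.61 ± 0.28, adjusted p = 2.6e-09). Apoa1 (ENSMUSG00000032083, chr9:46228580-46230466), the main protein of high-density lipoprotein, went from 0.85, 0.765 and 1.23 to 176, 182 and 178 (log2 change 6.54 ± 0.10, adjusted p = 1.1e-12). Ttr, the carrier of thyroid hormone and retinol-binding protein, went from 1.41, 2.5 and 2.53 to 167, 176 and 159.6. In XEN cells all 3 were low, with means of 0.876, 0.918 and 12.5 FPKM. These genes thus stood on day 16 at levels that neither the day 10 cells nor the XEN reference had.

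Genes of the apolipoprotein cluster on chromosome 9 rose together. Beside Apoa1, Apoa4 went from 0.985, 0.809 and 0.853 to 52.6, 50.2 and 52.9 FPKM. Apoc3 was listed at 0 in each day 10 library and stood at 7.57, 8.86 and 9.06 on day 16. In the cluster on chromosome 7 the members did not share a course. Apoc2 went from 0, 0.365 and 0 to 53.1, 49.2 and 49.4 FPKM. Apoc1 went from 30.9, 21.7 and 25.2 to 72.2, 78.1 and 87.1. Apoe, already abundant, stood at 1041, 1003 and 1049 on day 10 and 1121, 1069 and 1160.4 on day 16 (log2 change 0.11 ± 0.07, not called). The fibrinogen genes lie side by side on chromosome 3. Fgb went from 1.19, 1.30 and 1.37 to 110.2, 115 and 113 FPKM. Fgg went from 0.0566, 0 and 0.0569 to 1.58, 1.06 and 1.95. Fga was listed at 0 in each day 10 library and stood at 4.73, 4.91 and 4.32 on day 16. The chains of fibrinogen thus reached levels that differed widely. Transferrin (Trf) rose from 1.63, 0.357 and 0.676 to 58.2, 68.7 and 64.6 FPKM. Prothrombin (F2) rose from 1.49, 1.42 and 1.57 to 42.7, 42.6 and 38.2. Apob and Mttp, which build lipoproteins, rose by 3.07 and 2.06, Apoa2 by 2.73 and Ambp by 2.98. Albumin itself (Alb) stayed low, at 0.106, 0 and 0 FPKM on day 10 and 1.37, 1.66 and 1.19 on day 16. Ahsg and Fetub, both fetuin genes, were not called (changes of 0.90 and -0.09), and Ahsg was called higher with a pseudocount of 0.1 (1.33).

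Among genes of uptake and digestion, those of the receptor complex rose and most lysosomal genes were not called. Of 31 tested, 9 rose and 1 fell (median 0.394). Cubn, the large receptor of visceral endoderm and kidney, went from 6.97, 6.68 and 6.43 to 62.6, 60.3 and 57.8 FPKM. Amn, its membrane anchor, went from 0.751, 1.62 and 0.507 to 20.6, 18.4 and 18.1. Lrp2, the partner receptor, went from 5.26, 5.22 and 4.93 to 16.4, 16.5 and 17.7. Its chaperone Lrpap1 rose by 1.16. Dab2, the adaptor that links these receptors to clathrin, went from 21.2, 22.1 and 22.5 to 251, 245 and 241. For these genes the day 16 libraries lay well above the day 10 libraries and above the XEN means of 1.15 for Cubn, 0.183 for Amn and 74.3 for Dab2. The protease Ctsh rose by 2.18. Ctsl and Lamp1, abundant at means of 2506 and 962 FPKM on day 10, were not called with changes of 0.69 and 0.51. Under quantile normalization Ctsl was called higher, with a change of 1.32.

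Enterocyte genes showed 14 higher and 2 lower of 19 tested, out of 34 listed (median 2.17). Members near 0 FPKM on day 10, such as Muc13 and Cdh17, could not have been called lower. Fabp1, the fatty acid carrier of liver and gut, went from 0.542, 0.677 and 0.555 to 74.4, 93.4 and 75.5 FPKM. Fabp2, the gut form, went from 0.33, 0.271 and 0.226 to 35.9, 37.6 and 33.4. Lgals4, a lectin of the brush border, went from 1.61, 1.5 and 2.04 to 78.9, 94.6 and 96.2 FPKM. The membrane mucin Muc13 went from 0.176, 0.0441 and 0.0721 to 27.8, 25.9 and 24.7. Another lectin gene, Lgals2, went from 3.87, 2.25 and 3.70 to 193, 178 and 202, with the limit that it overlaps Cdc42ep1 on the other strand. Structural genes of the brush border moved at lower levels: villin (Vil1) went from 0.123, 0.0776 and 0.094 to 5.18, 4.85 and 4.66 FPKM. The cadherin Cdh17 went from 0, 0.0323 and 0.0268 to 4.73, 4.85 and 5.11. The calcium carrier S100g ran the other way, from 2588, 2496 and 2574 to 555, 496 and 552 FPKM, and the actin bundler Espn fell by 1.73. The peptidases Anpep and Dpp4 were not called, with changes of -0.55 and 0.42. Lypd8, a colon gene outside the list, was listed at 0 on day 10 and stood at 35.0, 35.7 and 33.9 FPKM on day 16. Slc5a5, the iodide transporter of thyroid and stomach, went from 0.321, 0.529 and 0.789 to 32.5, 36.2 and 34.0.

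The plot of secreted and absorptive genes shows that this gain came after day 10. Gkn2 had means of 0.0574, 0.132 and 0.126 FPKM on days 4, 7 and 10, and Afp of 0.0171, 0.182 and 0.786. Cubn took another path, with 14.8 and 13.1 FPKM on days 4 and 7 before the low of 6.69 on day 10.

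**Figure D3:**
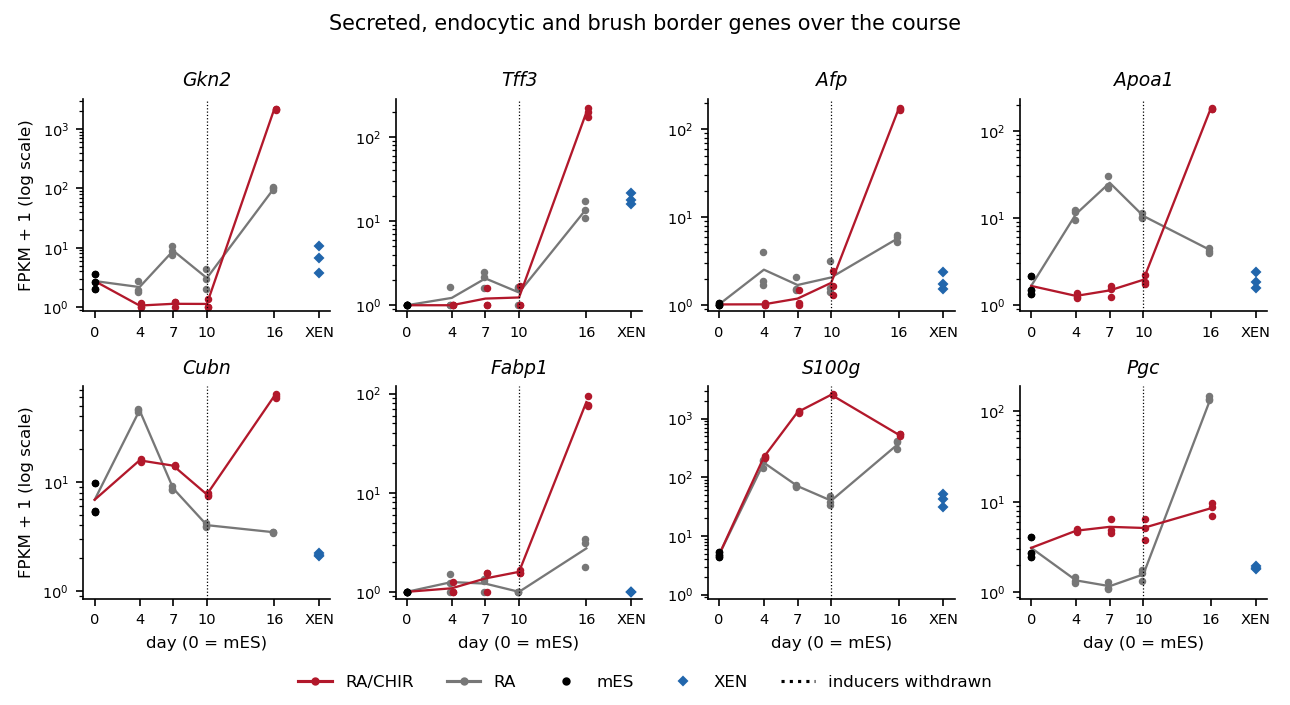
FPKM + 1 on a log axis for 8 stomach, serum protein and uptake genes by day in the RA/CHIR arm (red) and the RA arm (grey), with untreated stem cells (black) and XEN cells (blue diamonds); points are libraries, lines join means of 3 libraries, and the dotted line marks removal of the inducers. In the RA/CHIR arm Gkn2 goes from 0.126 to 2161 FPKM between day 10 and day 16.

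The transcription factors of endoderm moved in both directions. Of 20 tested, 7 rose and 2 fell (median 0.34). Hnf4a, the nuclear receptor that drives liver and gut genes, went from 4.54, 8.72 and 4.39 to 21.1, 21.0 and 16.0 FPKM (log2 change 1.61 ± 0.23, adjusted p = 8.2e-05). Foxa2 went from 36.2, 32.8 and 34.8 to 95.4, 92.9 and 97.9, and Foxa3 rose by 1.36. Foxa1 fell from 6.72, 6.33 and 7.51 to 1.21, 1.57 and 1.35. Isx, a homeobox gene of the intestine, went from 1.46, 1.55 and 1.41 to 18.7, 19.7 and 19.95 FPKM. Creb3l3, a factor of liver and gut, went from 0, 0 and 0.0469 to 3.17, 3.33 and 2.17. Cdx2, the homeobox gene that specifies intestine and is itself a Wnt target, fell from 7.49, 6.46 and 7.53 to 2.69, 3.06 and 2.28 while the enterocyte genes rose. Klf5 rose by 1.53. Sox7 and Gata5 were not called, with changes of -0.65 and -0.89. Gata5 was called lower with a pseudocount of 0.1 (-1.93) and under quantile normalization (-1.06).

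Of 26 basement membrane and parietal endoderm genes tested, 20 rose and 0 fell (median 1.45). The chains of laminin-111 rose together: Lama1 went from 158, 156 and 166 to 977, 952 and 909 FPKM. Lamb1 went from 327, 327 and 338 to 1665, 1601 and 1571 FPKM. Lamc1 went from 358, 367 and 369 to 2131, 2128 and 2111. Nid1, which links laminin to collagen IV, went from 9.73, 11.3 and 11.4 to 168, 161 and 159.9. Collagen IV genes Col4a1 and Col4a2, which share a promoter region and overlap in the annotation, rose by 1.20 and 1.40 and were already at means of 1336 and 832 on day 10. Sparc, a matrix protein abundant in parietal endoderm, went from 2683, 2709 and 2634 to 8861, 9018 and 8564. The laminin and nidogen levels of day 16 exceeded those of XEN cells, whose means were 358 for Lama1, 812 for Lamc1 and 6.70 for Nid1. Enzymes that modify collagen rose too, P4ha1 by 2.10 and Plod2 by 2.27, and so did the collagen chaperone Serpinh1, by 1.46. Thbd, a surface protein of parietal endoderm and endothelium, went from 1.21, 1.17 and 0.804 to 39.7, 36.7 and 38.5, and Srgn, Plat, Pth1r and Snai1 rose by 2.44, 1.63, 1.89 and 1.42. Hspg2 (perlecan) and Nid2, also basement membrane genes, were not called, with changes of -0.01 and 0.40. Markers of parietal and of visceral endoderm thus rose in the same libraries.

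Of 29 genes of the stem cell state tested, 10 rose and 4 fell (median 0.372). Nanog, a core pluripotency factor, stood at 0.189, 0.158 and 0.353 FPKM on day 10 and 3.08, 3.13 and 3.59 on day 16 (log2 change 1.79 ± 0.18, adjusted p = 4.4e-06), far under the 377 of untreated stem cells. Dppa5a rose from 177, 153 and 160.2 to 780.0, 795 and 814 FPKM. Fbxo15 went from 18.5, 17.6 and 22.8 to 79.0, 80.0 and 79.1. Utf1, Dnmt3l and Dnmt3b, a pluripotency gene and DNA methylation genes, rose by 2.35, 2.56 and 1.90. Dppa3 was listed at 0 on day 10 and stood at 3.36, 2.21 and 2.21 on day 16. In the opposite direction, Esrrb, a factor downstream of GSK3 inhibition in stem cells, fell from 22.7, 23.6 and 24.3 to 4.67, 4.63 and 4.37. Tbx3 fell from 51.6, 50.3 and 49.9 to 13.9, 14.1 and 14.2 together with its antisense RNA Tbx3os1, which went from 28.6, 41.7 and 40.0 to 0.674, 0.948 and 1.24 and cannot be separated from it. Nr0b1 and Lin28b fell (log2 changes of -1.35 and -1.77). Sox2 and Zfp42 were not called, with changes of 0.27 and 0.91. The list thus split, with Nanog and Esrrb on opposite sides.

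**Figure D4:**
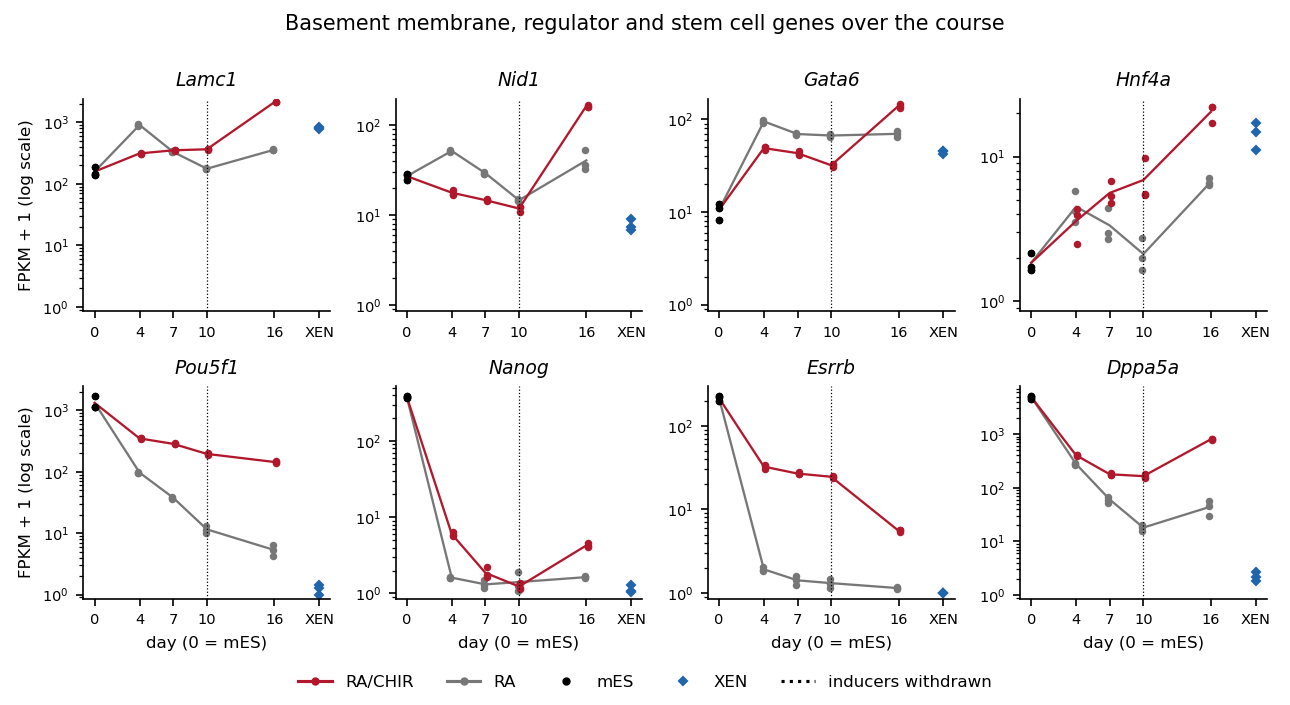
FPKM + 1 on a log axis for 8 basement membrane, regulator and stem cell genes by day in the RA/CHIR arm (red) and the RA arm (grey), with untreated stem cells (black) and XEN cells (blue diamonds); points are libraries, lines join means of 3 libraries, and the dotted line marks removal of the inducers. Pou5f1 stays above 100 FPKM in the RA/CHIR arm through day 16, and Lamc1 reaches a mean of 2123 FPKM.

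Replication and mitosis genes showed 7 higher and 1 lower of 44 tested (median 0.555), so most were not called. Among all genes tested, 10.2% rose and 7.58% fell. The licensing gene Cdc6 went from 5.53, 4.82 and 5.07 to 18.0, 17.2 and 17.8 FPKM. Tk1, the thymidine kinase of S phase, went from 10.2, 8.81 and 8.74 to 30.6, 31.3 and 32.0 FPKM. The proliferation marker Mki67 went from 4.96, 4.82 and 4.97 to 11.7, 12.8 and 11.5. Pcna, Cdk1, Mcm5 and Top2a were not called, with changes of 0.24, 0.34, 0.92 and 0.93. The cyclin genes parted: Ccnd1, a Wnt target, fell by 1.15 and Ccnd3 rose by 1.25.

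Of 23 genes of cholesterol synthesis and uptake tested, 10 rose and 0 fell (median 0.783). Insig1, the sensor that holds SREBP in the endoplasmic reticulum and is itself an SREBP target, went from 11.1, 10.6 and 12.9 to 179.6, 183 and 189.8 FPKM (log2 change 3.88 ± 0.12, adjusted p = 1.4e-10). The synthesis enzymes Hmgcs1 and Sqle rose by 1.59 and 1.52. Srebf2, the regulator of these genes, stood at means of 70.9 and 73.1 FPKM and was not called.

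Genes of the stress factor ATF4 and of the unfolded protein response moved in both directions. Of 27 tested, 4 rose and 6 fell (median 0.158), beside 10.2% and 7.58% of all genes tested. Asns, which makes asparagine, went from 203, 209 and 207 to 33.3, 28.7 and 33.7 FPKM. Chac1, which breaks down glutathione, went from 11.3, 12.2 and 11.3 to 1.05, 1.69 and 1.15 FPKM. The amino acid transporter Slc7a5 went from 38.3, 40.6 and 38.6 to 8.10, 8.90 and 8.52. Shmt2, Trib3 and Ddit3 fell (log2 changes of -1.32, -1.31 and -1.09). Atf4 mRNA itself was not called and stood at means of 158 and 282. Atf3 and Nupr1 rose by 2.39 and 2.79.

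Hedgehog genes fell in part, 5 of 10 tested with 0 higher (median -1.09). Shh went from 3.47, 4.01 and 3.10 to 0.297, 0.768 and 0.434 FPKM, the signal transducer Smo fell by 1.27 and the target Gli1 fell by 1.18. Ihh, the hedgehog ligand of visceral endoderm, was not called and stood at 68.7, 71.8 and 66.7 and then 48.1, 41.7 and 39.7. In the BMP and TGF-beta list 12 of 27 rose and 8 fell (median 0.691). Bmp4 went from 7.34, 6.31 and 7.49 to 1.05, 1.06 and 0.88 FPKM, Bmp7 fell by 1.75, and the target genes Id1 and Id3 fell (log2 changes of -1.34 and -2.27). The inhibitor Smad6 fell by 1.23. Id4, of the same family, rose by 1.63, and Id2 was not called. The secreted BMP binders Bmper, Grem1, Nog and Chrd rose by 3.4, 2.10, 1.16 and 1.24.

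Immediate early genes, which answer within minutes to serum or stress, rose in 17 of 18 tested with 0 lower (median 2.14). Fosb went from 0.274, 0.0459 and 0.119 to 33, 31.1 and 30.9 FPKM. Nr4a1 went from 5.77, 4.96 and 6.25 to 101, 92.2 and 92.9 FPKM. Egr1 went from 4.46, 4.20 and 4.23 to 41.4, 41.8 and 42.0 FPKM. Fos went from 0.987, 0.838 and 1.54 to 22, 21.6 and 21.0.

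Genes of fibroblast matrix and smooth muscle rose in the same libraries as the endoderm genes. Of 29 mesenchymal genes tested, 17 rose and 3 fell (median 1.07). The fibrillar collagen gene Col1a1 went from 6.53, 4.99 and 5.91 to 139, 130.3 and 123 FPKM. Its partner Col1a2 went from 3.46, 1.86 and 2.54 to 136, 130.3 and 129 FPKM. Col3a1 went from 4.59, 5.20 and 3.43 to 109, 102 and 99.5. Lox, which crosslinks them, and Dcn and Postn rose by 3.96, 3.14 and 2.8. The mesenchymal factor Twist1 fell from 29.5, 29.7 and 28.6 to 6.06, 5.10 and 5.37 FPKM. Cdh2 (N-cadherin) went from 8.72, 8.51 and 8.11 to 1.42, 1.47 and 2.0 FPKM. Ogn, a matrix proteoglycan, went from 11.7, 12.3 and 11 to 0.619, 0.738 and 0.389. Lum and Mgp, other matrix genes of fibroblasts and smooth muscle, had means of 0.571 and 0.434 FPKM on day 16 and were too low to be tested. Of 18 smooth muscle genes tested, 9 rose and 0 fell (median 1.14). Acta2 went from 36, 31.9 and 37.0 to 191, 188 and 188 FPKM. Actg2 went from 1.32, 0.802 and 0.886 to 19.3, 19.4 and 17.3. In RA-16d their means were 3683 and 1720.1. Myh11, the defining myosin of mature smooth muscle, was at most a trace with means of 0.0374 and 0.217. The summed FPKM of the mesenchymal list went from between 489 and 503 on day 10 to between 926 and 994 on day 16, and that of the smooth muscle list from between 679.8 and 705 to between 1673 and 1700.1. The part of another cell type in the collagen, matrix and actin results was not tested.

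Epithelial genes were mostly not called, with 7 of 33 higher and 1 lower (median 0.515). Cdh1 (E-cadherin) and Epcam stood at means of 91.4 and 119 FPKM on day 16, with changes of 0.83 and 0.47. Krt8 rose from 177, 175 and 184 to 468, 471 and 478 FPKM. Krt23 went from 0.161, 0.267 and 0.273 to 26.6, 27.0 and 25.1, while Krt18 was not called at 0.76. Ocln, of tight junctions, rose by 1.35.

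Markers of other cell types were summed per library, and their part in the results was not tested. The sum of 13 endothelial and blood genes went from between 37.2 and 39.5 FPKM to between 46.2 and 49.4, with the embryonic globins Hbb-y and Hbb-bh1 at 0 at both times. Tek and Cdh5 rose by 3.09 and 2.66, to means of 16.3 and 7.77, and XEN cells had 60.2 and 7.26. Kdr rose to a mean of 1.69, and Pecam1 was too low to be tested. The sum of 11 cardiac genes went from between 11.4 and 14.9 to between 48.2 and 53.1, with Nppb at a mean of 13.9 on day 16 and Myl2 and Nppa at 0. The sum of 7 mesothelial genes went from between 84.5 and 88.9 to between 202 and 209, with Msln up by 3.64 and Wt1 under 1 FPKM. The sum of 11 trophoblast genes went from between 12.7 and 15.3 to between 64.1 and 68.4, led by Plet1 and Plac1 (up by 3.87 and 3.39). The other members tested did not rise by the rule. Ascl2 fell by 1.57, and Gata3 and Krt7 were not called, with changes of -0.13 and 0.98. Of 14 hepatocyte genes, 9 were listed at 0 in all day 10 libraries and 5 in all day 16 libraries, and the fall of their sum from between 139 and 152 to between 13.2 and 15.7 went with Ass1, whose mean went from 144 to 7.35.

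The 12 named genes that fell the most also hold Ass1, of the hepatocyte markers, and 5 genes of no list that are given here. Ppp1r17, an inhibitor of protein phosphatases, went from 27.1, 28.7 and 27.5 to 0.0806, 0 and 0 FPKM. Ass1, the urea cycle enzyme argininosuccinate synthase, went from 139, 142 and 151 to 8.28, 6.41 and 7.35. Car3, a carbonic anhydrase, went from 25.0, 25.2 and 24.2 to 0.638, 0.434 and 0.0967 FPKM. Ffar3, a receptor for short fatty acids, went from 20.3, 21.4 and 22.6 to 0.418, 0.417 and 0. Mybpc1, a muscle myosin-binding protein, went from 16.1, 17.6 and 18.7 to 0, 0.0962 and 0.0857 FPKM. The matrix protease Mmp11 went from 68.9, 65.1 and 65.0 to 3.89, 2.75 and 2.58, with the limit that Mmp11 overlaps Chchd10 on the other strand. For each of these the groups lay far apart. Ppp1r17, Car3 and Mybpc1 had built up during induction, from 3.10, 4.64 and 1.82 FPKM on average on day 4.

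Day 16 levels were set beside the references. Of 1364 genes that rose and have a symbol of their own, 543 had a mean under 1 FPKM in XEN cells, and 406 had a XEN mean within 2-fold of day 16. A XEN mean more than 2-fold above day 16 was found for 76 of them. Of 1012 that fell, 346 were under 1 FPKM in XEN cells, 330 were within 2-fold of day 16, and 383 had a XEN mean more than 2-fold above day 16. A gene under 1 FPKM in a reference can also fall in a 2-fold class, so these counts overlap. In smooth muscle cells 522 of the genes that rose were under 1 FPKM and 295 within 2-fold of day 16, and in untreated stem cells 495 and 244. Of the genes that fell, 448 stood more than 2-fold above day 16 in smooth muscle cells and 586 in untreated stem cells. For the genes that rose these counts were 220 and 68. The same counts over all genes tested were not made. Genes that fell were picked partly by a low day 16 value and genes that rose by a high one. This by itself shifts where a reference lies beside day 16. Pitx1, a homeobox gene, stood higher in XEN cells, with 92.2 FPKM in XEN cells and 33 on day 16. Cited1, a transcription cofactor, fell from 353, 332 and 359 to 108, 96.6 and 114 FPKM and had a XEN mean of 73.6.

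The RA arm went through the same change of medium without CHIR beforehand, and no library is shared with the RA/CHIR comparison. Among the same 13366 genes, 900 rose (6.73%) and 230 fell (1.72%) from RA-10d to RA-16d. These genes were picked by their FPKM in the RA/CHIR libraries alone. Genes expressed in the RA arm only are therefore absent from the RA counts, the shared counts and the interaction. The arms are thus not compared on equal terms. Of the genes that rose, 465 were shared, which is 34% of those of the RA/CHIR arm and 51.7% of those of the RA arm. Of the genes that fell, 99 were shared, 9.77% and 43% of the respective lists. A further 18 genes rose in the RA/CHIR arm and fell in the RA arm, and 41 did the opposite. The difference between the changes of the arms, tested as an interaction, was called in the RA/CHIR direction for 900 genes (6.73%) and in the RA direction for 1138 (8.51%).

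Serum protein and Wnt genes were among those whose change differed between the arms. Of the 26 serum protein genes, 6 rose and 1 fell in the RA arm (median 0.17), and the interaction called 19 higher and 0 lower. Apoa1, which rose by 6.54 after RA/CHIR, fell after RA from 10.5, 9.16 and 8.89 to 3.20, 3.56 and 2.98 FPKM, giving an interaction of 7.84 ± 0.14 (adjusted p = 3.5e-11). Ttr and Fgb were not called in the RA arm, with changes of 0.10 and -0.31 and interactions of 5.67 ± 0.19 and 5.94 ± 0.13. Of the 27 Wnt targets, 6 fell and 0 rose in the RA arm (median -0.269), and the interaction called 16 lower and 3 higher. Nkd1 stood in the RA arm at 43.3, 41.4 and 37.8 on day 10 and 43.1, 53.8 and 49.1 on day 16 and was not called there (interaction -4.68 ± 0.15). Axin2 and Sp5 fell in both arms (log2 changes of -1.36 and -2.37 in the RA arm), and the changes differed, with interactions of -2.90 ± 0.16 and -2.34 ± 0.15.

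Retinoid genes gave a mixed result. The RA arm had 5 higher and 5 lower of 23, and the interaction 3 higher and 6 lower. Cyp26a1 was not called in the RA arm (-0.95, interaction -1.90 ± 0.06), whereas Cyp26b1 fell further there, from 64.0, 59.8 and 57.5 to 0.843, 0.951 and 1.15 FPKM (interaction 2.84 ± 0.17). Rarb had a log2 change of -1.94 in the RA arm and the interaction was not called (0.12 ± 0.25).

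Some groups rose in both arms. Of 19 goblet and stomach genes 15 rose in the RA arm (median 1.68), and the interaction called 9 higher and 3 lower. Gkn2 rose there too, from 3.30, 1.91 and 1.01 to 105, 93.2 and 102 FPKM, with an interaction of 5.82 ± 0.30. Pgc, not called after RA/CHIR, went from 0.624, 0.344 and 0.781 to 147, 136 and 132 after RA (interaction -5.72 ± 0.26). Of 26 basement membrane and parietal genes 16 rose and 1 fell in the RA arm, with 10 higher and 2 lower in the interaction. Lama1 rose by 2.45 in the RA arm against 2.55 here, an interaction of 0.11 ± 0.07 that was not called, while its day 16 mean was 94.3 FPKM against 946.

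Immediate early genes rose in 17 of 18 there as well (median 3.04), and the interaction called 8 lower and 0 higher. The RA-16d libraries differed widely in some of these genes. Their means were 223 ± 157 FPKM (SD, n = 3) for Fos, 177 ± 101 for Egr1 and 86.5 ± 56.0 for Fosb. Atf3 was closer, at 107 ± 21.1. Mesenchymal genes showed 21 higher of 29 there (median 2.18), smooth muscle genes 17 of 18 (median 2.24), and the interaction called 14 and 8 of them lower. Ogn, S100g, Pitx1 and Cited1 fell after RA/CHIR and rose after RA. Ogn went in the RA arm from 12.1, 11.1 and 11.6 to 137, 131 and 135 FPKM (interaction -6.43 ± 0.12), and S100g from 46.9, 32.9 and 37.2 to 411, 305 and 407 (interaction -5.49 ± 0.18). Pitx1 went from 10.5, 7.06 and 9.36 to 75.8, 75.1 and 79.5 there and from 234, 214 and 229.7 to 38.3, 29.2 and 31.4 after RA/CHIR (interaction -5.72 ± 0.17). Zg16, Muc13 and Fabp2 were not called in the RA arm and had interactions of 5.65 ± 0.20, 5.07 ± 0.18 and 4.77 ± 0.19. The plot of the arms against each other shows genes far off the diagonal on both sides.

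**Figure D5:**
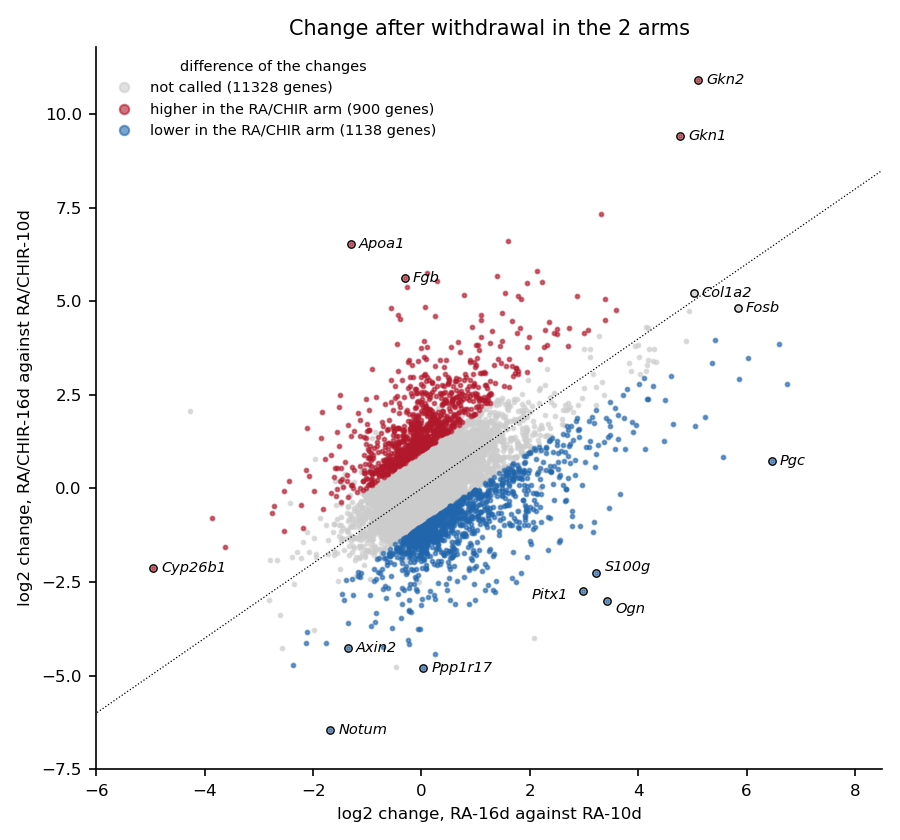
Each point is a gene tested, placed by its log2 change of FPKM + 1 from day 10 to day 16 in the RA arm (horizontal axis) and in the RA/CHIR arm (vertical axis), 3 libraries per group; coloured points are those called in the test of the difference between the arms (900 higher and 1138 lower in the RA/CHIR arm). Apoa1 lies at the upper left, with changes of -1.31 and 6.54, and Ogn at the lower right, with 3.42 and -3.01.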

How the data were processed

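Poly(A) RNA of 33 mouse samples in 11 groups of 3 was sequenced. Reads were trimmed with Trimmomatic 0.33 and aligned with HISAT2 2.0.4 to build GRCm38, per the submitters' processing notes, which also name Cufflinks and Cuffdiff without versions. The authors deposited FPKM per gene. FPKM divides by gene length and by each library's total, so depth is not kept and a few abundant genes can shift all others. Of 52631 gene identifiers, 52398 were matched to symbols, 13 of them restored from dates, and 198 genes share a symbol with another.

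From the deposited FPKM, log2(FPKM + 1) was computed and the genes with at least 1 FPKM in at least 3 of the 6 RA/CHIR libraries were fitted with limma 3.58.1 (R 4.3.3, trended variance prior) on the 12 libraries of RA/CHIR-10d, RA/CHIR-16d, RA-10d and RA-16d, with no covariate. The contrasts were day 16 minus day 10 in each arm and the difference of these contrasts, called the interaction. P-values were adjusted by Benjamini-Hochberg over the 13366 genes, and a call needed an adjusted p under 0.05 and a log2 change of at least 1 in size. Tables and plots were made with Python 3.11.15, pandas 2.3.3, numpy 2.4.6 and matplotlib 3.10.9. On simulated data for the main contrast, 99 of 100 genes changed by 1.5 and 99 of 100 changed by 2.5 on the log2 scale were called, and 1 of 13166 unchanged genes was. The changed genes were drawn only from those with a mean log2(FPKM + 1) over 2.5, and the noise was normal. Recovery of genes near 0 FPKM on day 10 was therefore not tested.

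Genes were named by 3 rules: the 12 highest and 12 lowest called genes with at least 5 FPKM on average in the higher group, no overlap between the days, and a symbol held by 1 gene that is no Gm or Rik name; from each list, 2 to 6 of its called members in order of the size of their change, and members whose role the text turns on; and 6 genes per direction for the interaction. Other members of the lists, and Ghrl, Lypd8, Notumos and Slc5a5 outside them, were picked after their values were seen. The members, the 34 gene lists and the tests were chosen with earlier results of these data known. Strand use in counting is not given in the sources used here, so genes that overlap cannot be told apart. Overlapped by a gene with 1 FPKM or more in any of the 6 libraries are Apoa4, Ccnd1, Ccnd3, Chrd, Col4a1, Ddit3, Dnmt3l, Gata6, Ghrl, Gli1, Hoxa3, Hoxc5, Irf7, Lamp1, Mttp, Nid2, Pdgfra, Pitx1, Pth1r, Rarb, Shh, Shmt2, Tgm2, Tk1, Trf and Vil1, besides the pairs named with their values. Replicate numbers carry no stated link between groups and were tried as a block. The alternatives were other scalings, pseudocounts, filters, sets of libraries in the fit, a prior without trend, leaving out each library and no minimum change. Some results are not reported here.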

Additional observations from a re-analysis of the deposited data

Results flagged for a closer look

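The day 16 minus day 10 change differed between the RA/CHIR arm and the RA arm for 900 genes that moved more toward higher values after RA/CHIR and for 1138 that moved more toward lower values, by limma's test of the difference itself. The genes named here were singled out because that test called them with the largest differences, given on the log2(FPKM + 1) scale.

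On the higher side these were Apoa1 at 7.84, Fgb at 5.94, Gkn2 at 5.82, Ttr at 5.67, Zg16 at 5.65 and Apoa4 at 5.38. Of these, Gkn2 rose in the RA arm too, Apoa1 fell there, and the other 4 were not called there. Apoa4, a protein of gut lipoproteins, had RA arm means of 1.03 and 0.351 FPKM on days 10 and 16.

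On the lower side were Ogn at -6.43, Pitx1 at -5.72, Pgc at -5.72, S100g at -5.49, Ppp1r17 at -4.84 and Notum at -4.77. Ogn, Pitx1 and S100g fell after RA/CHIR and rose after RA, and Pgc was called in the RA arm alone. Ppp1r17 had RA arm means of 0 and 0.0254 FPKM. Notum fell in the RA arm as well, from a mean of 14.3 to 3.79 FPKM, after starting from a lower level than the 103 of RA/CHIR-10d.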

How the results depend on the processing

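Leaving out each library in turn gave 1364 to 1378 genes higher and 1005 to 1033 lower, against 1366 and 1013 with all. Other scalings gave 1347 and 1019 (factors of the TMM kind) and 1275 and 1179 (quantile normalization, which moved the median change of all genes from 0.0119 to -0.06082). A pseudocount of 0.1 gave 1650 and 1375, and the fits on other sets of libraries or without a variance trend between 1364 and 1368 higher and between 1007 and 1014 lower. A filter on a mean of at least 5 FPKM gave 1016 and 726. Under it 6 Wnt ligand or receptor genes were lower in place of 10, and 8 enterocyte genes higher in place of 14, since fewer members were tested. With no minimum change, 8302 genes passed (4376 higher, 3926 lower), and 6084 in the interaction (2996 higher, 3088 lower). All lists together then had 567 calls, with 16 Wnt ligand or receptor genes and 25 Hox genes lower and with 20 endocytic, 16 pluripotency, 20 cholesterol and 15 smooth muscle genes higher, because the fold threshold was absent. With the replicate number as a block, 1366 genes were higher and 1011 lower. Same-numbered libraries of day 10 and day 16 deviated with correlations of -0.07146, 0.07553 and 0.115, so the numbers were not taken as pairs. Of 6251 values of 286 named genes under these settings, 6224 kept their call or stayed uncalled, 8 lost a call and 19 gained one. For 0 values did a called gene change sign or an uncalled gene gain a call against its main direction. The sign of changes that stayed uncalled was not compared. Under the mean filter 41 of the genes were not tested. Calls were gained by Ahsg, Cdx1, Crabp2, Ctsl, Gata5, Hoxb2, Igfbp1, Jund and Tff2 and lost by Dhrs3, Etv4, Folr1 and Psap. FPKM holds no read counts, so the counting error of low genes is unknown, and 3 libraries per group limit the precision.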

Other observations

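Other lists are given beside the shares of all genes tested, 10.2% higher and 7.58% lower. Of 21 FGF ligands, receptors and feedback genes tested, 7 rose and 2 fell (median 0.499). Dusp6, a phosphatase that damps ERK signalling, went from 2.8, 3.36 and 2.77 FPKM on day 10 to 23.0, 21.7 and 22.3 on day 16. Dusp5, its nuclear relative, went from 2.54, 2.48 and 3.13 to 24.1, 22.6 and 22.3. Fgfbp3, which carries FGF proteins in the matrix, went the other way, from 30.7, 27.9 and 27.4 to 1.67, 0.632 and 1.84, while Fgfbp1 went from 0.346, 0.866 and 0.441 to 6.13, 5.44 and 5.15. In each of these genes the 3 libraries of day 16 lay clear of the 3 of day 10. Of 23 interferon and antigen presentation genes tested, 8 rose and 3 fell (median 0.72). Isg15, a ubiquitin-like protein induced by interferon, went from 1.31, 1.92 and 1.11 to 24.7, 28.2 and 25.4 FPKM. Irf7, a factor of the same response, went from 1.22, 0.923 and 0.906 to 13.0, 10.7 and 12.8. The class I gene H2-D1 went from 41.5, 44.2 and 45.8 to 156, 173 and 153, and the membrane protein gene Ifitm1 fell from 126, 104 and 119.9 to 16.6, 14.9 and 16.9. In the RA arm 15 of the 23 rose and 0 fell, Ifitm1 among those that rose, and the interaction called 10 lower and 0 higher.

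Of 24 glutathione and detoxification genes tested, 7 rose and 0 fell (median 0.579). The glutathione transferase Gstm3 went from 0.0975, 0 and 0 to 14.3, 15.7 and 14.5 FPKM. Gsta1, of the same family, was listed at 0 in the day 10 libraries and stood at 4.16, 5.30 and 4.39 on day 16, and Gpx2, the peroxidase of the gut lining, went from 101, 95.7 and 107 to 236, 231 and 217. Near-identical copies exist within the glutathione transferase families, so reads may have been split between members. Of 31 genes of fatty acid use tested, 6 rose and 0 fell (median 0.439). Angptl4, an inhibitor of lipoprotein lipase, went from 0.801, 0.787 and 0.916 to 12.6, 12.7 and 14.7. Of 26 hypoxia and glycolysis genes tested, 7 rose and 1 fell (median 0.269). Egln3, an oxygen-sensing hydroxylase, went from 1.63, 1.26 and 1.18 to 10.1, 9.76 and 9.03 FPKM, and Mif, a cytokine gene, fell from 693, 688 and 678 to 316, 293 and 325. In the RA arm 18 of the 26 rose and 0 fell (median 1.38), and the interaction called 13 lower and 0 higher. Of 21 CDK inhibitor and p53 target genes tested, 2 rose and 1 fell (median -0.0976), no more than those shares. Neural markers gave 2 higher and 1 lower of 5 tested, and germ cell markers 1 higher and 0 lower of 6.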
